A study of Mus musculus with 4 samples.

Results

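Malat1, Neat1, Meg3, Kcnq1ot1 and Pvt1 are long noncoding RNAs known for staying in the nucleus, and they were followed here by name, as 5 of the 19632 gene rows, across 23 clusters of kidney nuclei in 4 mice. snRNA-seq was performed on kidney cortex of male mice of mixed strain, with 1 mouse in each of 4 conditions, to find what human KLF6 changes early in toxic kidney injury. The control mouse carried TRE-hKLF6 alone, and the hKLF6OE mouse carried CAG-rtTA with TRE-hKLF6, in which a globally active promoter drives the transactivator. Both genotypes were also studied after a single injection of 2 mg/kg aristolochic acid I (AAI), a plant toxin that damages DNA, with kidneys taken 24 hours later. All 4 mice therefore carried the human transgene, all received doxycycline diet as given in the study's methods, and mice without AAI are labelled as untreated. The age of these mice was not given in the sources used here.

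Each value is the mean over the nuclei of 1 cluster in 1 mouse of counts scaled to 10000 per nucleus, so it is a share of counts and not a level per length of RNA. Each of the 92 columns sums to 10000, and the number of nuclei and counts behind a column is not used here, so no counting interval could be given. With 1 mouse per condition there is no spread between mice, no test was possible, and every difference describes these mice. A difference is the log2 of (value + 1) in the first minus that in the second; a gene was compared if 1 side reached 0.5, and was called higher or lower from a difference of 0.2. Only nuclear RNA was sequenced, so retention in the nucleus itself was not measured. A change in the share of a gene can come from that gene or from the rest of the counts, which cannot be told apart in these values.

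Malat1 gathers at nuclear speckles, bodies rich in splicing factors, and Neat1 is the scaffold of paraspeckles, bodies that hold RNA-binding proteins and are known to respond to stress. Kcnq1ot1 and Meg3 are made from 1 parental copy of imprinted domains, the former as an antisense transcript that silences neighbors such as Cdkn1c on the paternal chromosome. Pvt1 lies beside the growth gene Myc and is known to be induced by p53, the factor that answers DNA damage. In the kidney, the proximal tubule takes up AAI and carries most of the resulting injury.

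Malat1 and Neat1 are neighbors in the genome, and a stretch at or near the 3′ end of each is shown because the stretches share letters. On GRCm38, Malat1 (ENSMUSG00000092341.3) spans 6983 bases at chr19:5795690-5802672 on the minus strand and Neat1 (ENSMUSG00000092274.3) spans 20771 bases at chr19:5824708-5845478 on the same strand, with 22035 bases between them. The lines below give 100 bases of transcript, 5′ to 3′, from chr19:5795982-5796081 (minus strand) for Malat1 and chr19:5824708-5824807 (minus strand) for Neat1, and capitals mark the stretches of at least 10 bases that both windows hold. The Neat1 window is the end of the annotated transcript, and 292 annotated bases follow the Malat1 window.
Malat1: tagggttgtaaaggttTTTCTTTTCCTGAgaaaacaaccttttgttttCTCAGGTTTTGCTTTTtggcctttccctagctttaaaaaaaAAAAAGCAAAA
Neat1: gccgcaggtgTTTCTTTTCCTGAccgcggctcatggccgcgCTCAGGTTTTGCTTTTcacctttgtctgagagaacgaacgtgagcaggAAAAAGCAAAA
The shared stretches are 13, 16 and 11 bases long and stand in the same order in both. Of 141767 annotated mouse transcripts, 35 hold the first, 618 hold the last, and 2, Malat1-201 and Neat1-201, hold the second and all 3. The uridine-rich and adenosine-rich stretches there are known to fold into a triple helix. It protects an RNA that ends there, which has no ordinary poly(A) tail. Malat1 and Neat1 each have 4 annotated transcripts, and the windows come from the longest. The values are counted by gene, so which transcripts they come from was not measured.

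The other 3 genes are longer. Kcnq1ot1 (ENSMUSG00000101609.2) covers 93092 bases at chr7:143203458-143296549 on the minus strand as 1 unspliced annotated transcript, and it lies wholly inside Kcnq1, a potassium channel gene at chr7:143106362-143427042 on the plus strand. Pvt1 (ENSMUSG00000097039.8) covers 340111 bases at chr15:62037986-62378096 on the plus strand and starts 47611 bases after the end of Myc. Meg3 (ENSMUSG00000021268.17) covers 30726 bases at chr12:109541001-109571726 on the plus strand. Runs of at least 10 adenosines, where an oligo(dT) primer can bind inside an RNA, numbered, in the longest annotated transcript, 10 for Kcnq1ot1, 6 for Meg3, 1 for Malat1 and 0 for Neat1 and Pvt1, and 7.18% of the 141767 transcripts held at least 1. These transcripts differ in length, with 93092 bases for Kcnq1ot1, 14548 for Meg3, 6983 for Malat1, 20771 for Neat1 and 3319 for Pvt1. The counts of runs are thus not comparable between genes, and the share over all transcripts is not matched for length. Introns, whose reads were also counted in these data, were not searched. What such runs add to each value was not tested. The promoter table of RefSeq (GRCm38.p6) held 3 of the 5 genes, and that of Kcnq1ot1, chr7:143296498-143296797 (minus strand, 250 bases before to 50 after the start), is shown as the start of the antisense RNA, with its CCAAT boxes in capitals.
Kcnq1ot1: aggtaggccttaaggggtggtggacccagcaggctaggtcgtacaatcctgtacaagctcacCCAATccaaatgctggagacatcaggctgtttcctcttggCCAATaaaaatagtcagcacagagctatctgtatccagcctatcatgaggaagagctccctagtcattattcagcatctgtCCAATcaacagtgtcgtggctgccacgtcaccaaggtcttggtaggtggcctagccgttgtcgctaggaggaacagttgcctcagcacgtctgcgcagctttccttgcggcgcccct
CCAAT, searched on both strands after the sequence had been seen, occurred 3 times. At least 1 match was found in 37.4% of 32851 promoters and at least 3 in 3.37%. The GC box GGGCGG, held by 35.7% of promoters, had no match in the promoters of Malat1, Meg3 and Kcnq1ot1. Neither had RRRCWWGYYY (R is A or G, W is A or T, Y is C or T), held by 8.36%. This motif is only a part of a full p53 binding site. The promoters of Neat1 and Pvt1 were not available and were not searched.

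Malat1 took the largest share of counts, not divided by length, of any gene in all 92 columns. Its values ran from 565 to 1775 per 10000 with a median of 1029. The DCT cluster (distal convoluted tubule, salt-reabsorbing cells) had the highest mean of the 4 mice, 1479, from 1384 in control, 1184 in control with AAI, 1775 in hKLF6OE and 1571 in hKLF6OE with AAI. Macrophages had the lowest mean, 648, from 643, 565, 724 and 662 in the same order of mice, which lay below every DCT value. Along the order of the 23 cluster means, the ranges over mice overlapped in all 22 pairs of neighbors, so the order between nearby clusters is not resolved.

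Neat1 ran from 6.18 to 55.0 with a median of 20.6, and it was above 0 in every column. LH-AL-2, thick ascending limb cells of the loop of Henle, had the highest mean at 41.2, with 34.0 in control, 38.7 in control with AAI, 37.2 in hKLF6OE and 55.0 in hKLF6OE with AAI. Mesangial cells (MC) had the lowest mean at 8.04, with 10.9, 6.28, 7.37 and 7.63 in that order. By the mean of the 4 mice, LH-AL-2, DCT, LH-AL-1 and podocytes thus stood at the top, and MC, EC-2 and macrophages at the bottom. Over the 2 mice without AAI, LH-AL-2 was again first at 35.6. InjuredPT-B, which was sparse without AAI, followed at 35.3, and PT-S3-1 at 33.8 stood beside DCT at 33.7. The ranges over mice overlapped in all 22 pairs of neighbors, so the order between nearby clusters is not resolved. The MC, EC-2 and macrophage values together reached at most 14.04, and all LH-AL-2 values were above that. MC and macrophages also held proximal tubule transcripts, with means of the transporter Slc5a12 of 7.54 in each, and what these add to their values was not tested.

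Kcnq1ot1 stood highest in podocytes, the filtration cells of the glomerulus. It was 22.4 in control, 30.2 in control with AAI, 20.7 in hKLF6OE and 28.2 in hKLF6OE with AAI, against 8.48 for the highest value of any other cluster, in LH-DL of hKLF6OE with AAI. Podocytes against LH-DL was the only pair of neighbors in the order of means, of 22, whose ranges did not overlap, in any of the 5 genes. The cluster also held the slit diaphragm gene Nphs1, with a mean of 18.4 against 1.61 in the next cluster, LH-DL, so its name fitted this marker. DCT had the lowest Kcnq1ot1 mean, 1.45.

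The genes around Kcnq1ot1 did not share one order of clusters. Cdkn1c, a cell cycle inhibitor of the imprinted domain, was also highest in podocytes, with 2.54 in control, 3.38 in control with AAI, 3.06 in hKLF6OE and 2.70 in hKLF6OE with AAI, and its next highest cluster mean was 0.293. Kcnq1, on the opposite strand over the same bases, was highest in CNT (connecting tubule), with a mean of 12.9, where Kcnq1ot1 had a mean of 1.80. In podocytes Kcnq1 was 2.66, 2.00, 2.36 and 1.22 in the same order of mice. Whether reads were counted by strand was not stated in the sources used here, and without strand the reads of Kcnq1 and Kcnq1ot1 cannot be told apart. Across the 92 columns, which share 4 libraries and 23 clusters, r between Kcnq1 and Kcnq1ot1 was -0.41.

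Pvt1 was at most 7.21 and was at 0 in 6 of 92 columns. Macrophages had its highest mean, 4.07, with 3.93 in control, 3.74 in control with AAI, 2.22 in hKLF6OE and 6.38 in hKLF6OE with AAI. PT-S3-3, a cluster of the last proximal tubule segment, followed at 3.82, with values of 1.52, 5.38, 1.17 and 7.21 in the same order. In PT-S3-3 both AAI-treated mice were thus high, whereas in macrophages the mice with and without AAI overlapped. Over the 2 mice without AAI, macrophages were again first.

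Meg3 was at 0 in 76 of 92 columns. Its highest values were 0.396 in macrophages of control with AAI and 0.364 in MC of hKLF6OE with AAI, and MC had the highest mean, 0.166, from 0.239 in control, 0 in control with AAI, 0.0615 in hKLF6OE and 0.364 in hKLF6OE with AAI. It did not reach 0.5 in any column and entered no comparison. Of the 8 listed genes of the Dlk1-Dio3 domain, to which Meg3 belongs, 2 had a row and 0 reached the minimum in normal proximal tubule.

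**Figure D1:**
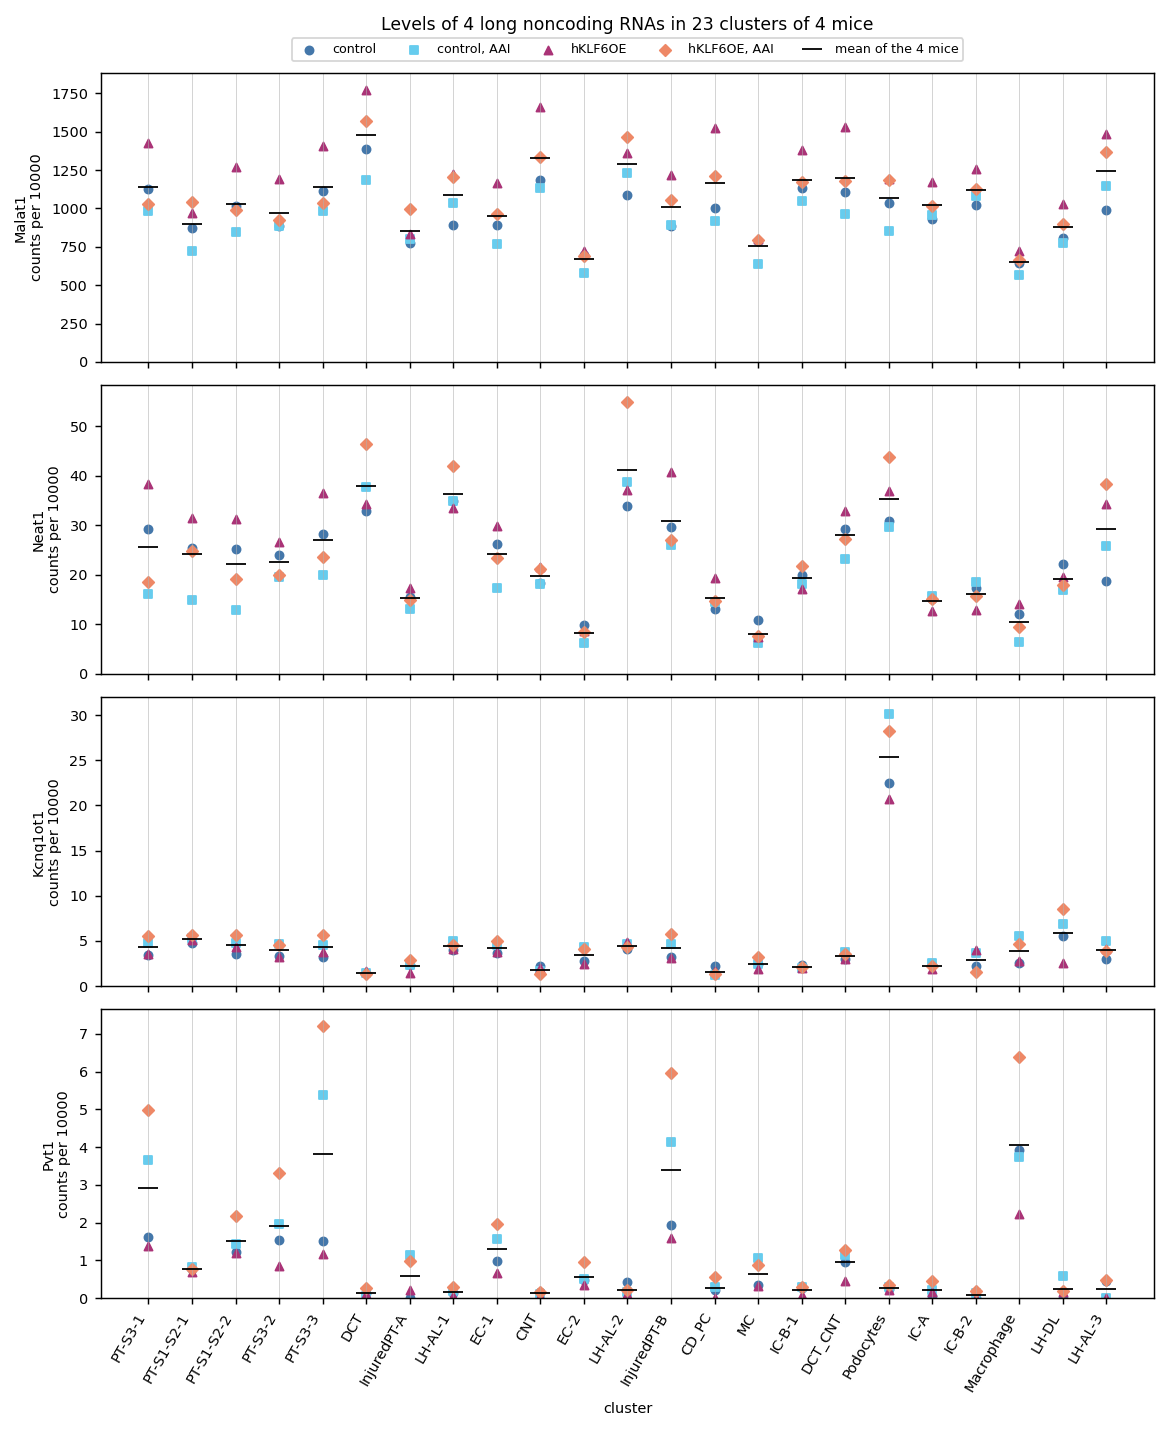
Malat1, Neat1, Kcnq1ot1 and Pvt1 (counts per 10000, linear axes from 0) in each of 23 clusters, with 1 point per mouse and a bar at the mean of the 4 mice. Podocytes stand apart for Kcnq1ot1, with 20.7 to 30.2, while Malat1 runs from 565 to 1775 over all clusters.

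AAI was compared with no AAI in normal proximal tubule, as the average of its 5 clusters, to ask how these RNAs stood 24 hours after DNA damage. Neat1 was lower with AAI and Pvt1 and Kcnq1ot1 were higher, in both genotypes. These 2 comparisons use different mice. The 4 genes that entered gave 2 higher and 1 lower in control, where 11.7% of 4052 genes were higher and 11.25% lower. In hKLF6OE they gave 2 higher and 2 lower, where 19.5% of 4133 genes were higher and 15.4% lower.

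Pvt1 was 1.33 in control and 2.65 in control with AAI, a difference of 0.65, and it ranked 56 from the top of 4052 genes. In hKLF6OE it was 1.05 without and 3.69 with AAI, a difference of 1.19, ranking 12 of 4133. Both AAI-treated mice thus stood above both mice without AAI in this mean. The size differed among the 5 clusters. In PT-S1-S2-1, of the early segments, Pvt1 was 0.765 in control, 0.813 in control with AAI, 0.690 in hKLF6OE and 0.780 in hKLF6OE with AAI, differences of 0.04 and 0.08. In PT-S3-3 the differences were 1.34 and 1.92, and in PT-S3-1 0.83 and 1.33. PT-S3-2 lay at 0.22 and 1.23, and PT-S1-S2-2, the other early cluster, at 0.13 and 0.54. With the 3 PT-S3 clusters alone as normal proximal tubule, Pvt1 was higher by 0.87 in control and 1.53 in hKLF6OE.

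Neighbors of Pvt1 moved less. Myc itself did not reach 0.5 in normal proximal tubule, and its highest cluster mean was 0.265, in InjuredPT-A. Asap1, which acts on the actin cytoskeleton, differed by -0.10 in control and 0.23 in hKLF6OE, and Fam49b by 0.12 and 0.33. Among listed p53 targets, 5 of 6 that entered were higher in control and 5 of 5 in hKLF6OE, with medians of 1.11 and 0.92 beside 0.01 and 0.05 for all genes. Mdm2, which degrades p53, was 0.970 in control and 4.50 in control with AAI, a difference of 1.48, and 0.841 and 4.86 in hKLF6OE, a difference of 1.67. Cdkn1a, the cell cycle inhibitor induced by p53, was 0.00544 and 0.418 in control and 0.00688 and 0.445 in hKLF6OE, under the minimum of 0.5.

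Neat1 was 26.5 in control and 16.7 in control with AAI, a difference of -0.63, and 32.8 and 21.3 in hKLF6OE, a difference of -0.60. It was lower in each of the 5 clusters in both genotypes, from -0.28 in PT-S3-2 to -0.92 in PT-S1-S2-2 in control, and from -0.33 in PT-S1-S2-1 to -1.01 in PT-S3-1 in hKLF6OE. The direction was thus shared by early and late segments. The proteins of paraspeckles, by a list of 31, did not stand lower: 3 of 20 that entered were higher and 0 lower in control, and 3 of 21 higher and 0 lower in hKLF6OE. Their medians were 0.01 and 0.09, beside 0.01 and 0.05 for all genes. Zc3h6 differed most in control, by 0.42, and Hnrnph1 in hKLF6OE, by 0.35.

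Kcnq1ot1 was 3.68 in control and 4.80 in control with AAI, a difference of 0.31, and 4.00 and 5.41 in hKLF6OE, a difference of 0.36. It was higher in 4 of the 5 clusters in both genotypes, all but PT-S1-S2-1, where it differed by 0.12 and 0.11. Kcnq1, over the same bases, differed the other way, by -0.10 in control and -0.26 in hKLF6OE. Of its other domain neighbors, Slc22a18, a transporter, differed by -0.27 and -0.30, and Cd81, a membrane protein, differed by 0.29 in control and -0.20 in hKLF6OE.

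Malat1 was 1003 in control and 884 in control with AAI, a difference of -0.18, short of the threshold. In hKLF6OE it was 1254 without and 1005 with AAI, a difference of -0.32. Proteins of nuclear speckles, where Malat1 gathers, gave 1 of 20 higher and 0 lower in control and 2 of 20 higher and 0 lower in hKLF6OE, and Rbm25, a splicing regulator, differed most in both, by 0.33 and 0.37. The 13 mitochondrially encoded genes, which share the total of 10000, were 1.61% of counts in control, 1.11% in control with AAI, 2.26% in hKLF6OE and 1.01% in hKLF6OE with AAI. Their part in the differences of Malat1 was not tested. With these genes and the 5 long noncoding RNAs left out of the total together, Malat1 joined Neat1 as lower in control, making 2 of 4. The 5 RNAs were themselves 10.3% of counts in control and 9.09% in control with AAI. Because Malat1 was taken out as well, this rescaling cannot give the part of the mitochondrial genes.

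Other long noncoding RNAs were scarce. Of a list of 42, 23 had a row, and 6 entered in control and 5 in hKLF6OE. Gm26917 differed most in both, from 1.42 to 3.72 in control and from 1.28 to 8.92 in hKLF6OE, log2 differences of 0.96 and 2.12, and it ranked first of 4133 genes in the latter. Airn, the antisense RNA of the imprinted Igf2r domain, and Ftx were lower in control, and Snhg11 was lower in hKLF6OE.

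Over all 23 clusters, compared with AAI against no AAI, Pvt1 and Kcnq1ot1 were called higher in more clusters than lower, and Neat1 lower in more than higher. In control, 27.6% of 109511 pairs of gene and cluster were higher and 25.2% lower, and in hKLF6OE 31.6% of 108566 were higher and 26.2% lower. Pvt1 was higher in 8 of 13 clusters that entered and lower in 0 in control, and higher in 12 of 13 and lower in 0 in hKLF6OE. Kcnq1ot1 was higher in 14 of 23 and lower in 2 in control, and higher in 13 and lower in 2 in hKLF6OE. Most Kcnq1ot1 values were at least 2. Among all pairs with a value of at least 2, 33.6% were higher and 27.7% lower in control. In hKLF6OE, 45.3% of such pairs were higher and 24.8% lower. Clusters of 1 mouse share a library, so these counts are not counts of independent samples.

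Pvt1 was higher in both genotypes in 7 clusters, the 3 PT-S3 clusters, InjuredPT-A, InjuredPT-B, EC-1 and MC. The injured clusters were sparse without AAI, with 62.6% of genes at 0 for InjuredPT-A and 51.3% for InjuredPT-B in control and 40.8% and 55.7% in hKLF6OE. In InjuredPT-B it was 1.93 in control, 4.12 in control with AAI, 1.59 in hKLF6OE and 5.97 in hKLF6OE with AAI. In EC-1 it was 0.973, 1.55, 0.667 and 1.96, and this endothelial cluster also held Slc5a12 with a mean of 17.3. Kcnq1ot1 was higher in both genotypes in 11 clusters, among them podocytes, by 0.41 and 0.43, and EC-2, by 0.51 and 0.56. It was lower in both in CNT, with differences of -0.28 and -0.40. Its higher clusters thus included glomerular and endothelial ones beside the tubule. EC-1 and EC-2 also held Slc22a18, a transporter highest in normal proximal tubule, with means of 3.48 and 1.25 against 0.699 in podocytes. What proximal tubule transcripts add to the Kcnq1ot1 differences in EC-1 and EC-2 was not tested.

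With AAI, Neat1 was lower in all normal proximal tubule clusters and had no one direction in the others. It was lower in both genotypes in 9 clusters, the 5 normal proximal tubule clusters, InjuredPT-A, EC-1, DCT_CNT and macrophages. In control it was lower in 12 of 23 and higher in 1, LH-AL-3, and in hKLF6OE lower in 11 and higher in 7, which were DCT, LH-AL-1, LH-AL-2, IC-B-1, podocytes, IC-A and IC-B-2. In LH-AL-2 it was 37.2 in hKLF6OE and 55.0 in hKLF6OE with AAI, a difference of 0.55, and in control the difference was 0.18. In PT-S3-1 it was 38.4 and 18.6 in these hKLF6OE mice, a difference of -1.01 on the log2 scale. DCT_CNT and EC-1 also held Slc22a18, which was highest in the 5 normal proximal tubule clusters. Its means there were 3.18 and 3.48, against 0.671 in DCT and 0.717 in CNT. What proximal tubule transcripts add to the differences in DCT_CNT, EC-1 and macrophages was not tested.

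Malat1 was lower in 8 clusters and higher in 2 in control, and lower in 11 and higher in 1 in hKLF6OE. PT-S1-S2-2, EC-1 and DCT_CNT were lower in both, and EC-1 and DCT_CNT held proximal tubule transcripts as given above. Among pairs with a value of at least 10, the range that holds Malat1 and most Neat1 values, 34.7% were lower and 34.3% higher in control and 31.7% lower and 46.9% higher in hKLF6OE. This minimum was chosen after the values had been seen. The mitochondrial share was lower with AAI in 22 of 23 clusters in control and in 23 of 23 in hKLF6OE, beside these differences of Malat1, and its part in them was not tested.

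**Figure D2:**
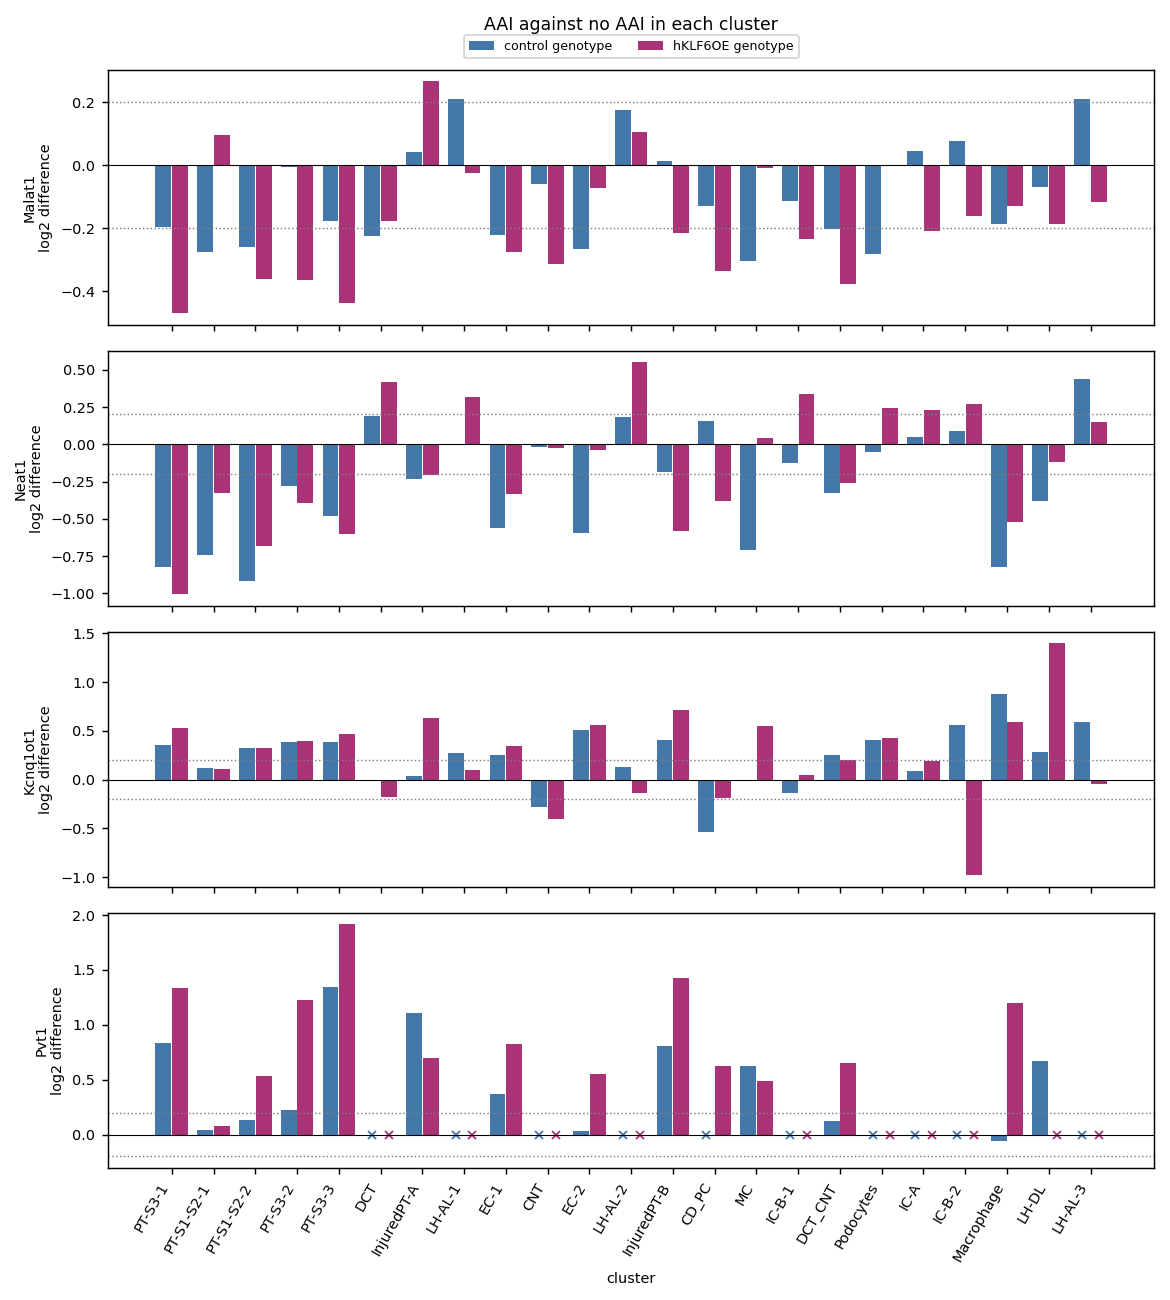
Log2 difference of AAI against no AAI in each cluster, with blue bars for the control genotype, purple bars for hKLF6OE, dotted lines at 0.2 either way, and crosses where neither side reached 0.5 (each panel has its own axis). Neat1 is below 0 in all 5 normal proximal tubule clusters of both genotypes, and Pvt1 reaches 1.34 and 1.92 in PT-S3-3.

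hKLF6OE was compared with control within each treatment, to ask what adding the rtTA driver to the transgene, with and without injury, changed. The table has no row for human KLF6, and mouse Klf6, which does not measure the transgene, was 0.215 in control, 0.406 in control with AAI, 0.137 in hKLF6OE and 0.327 in hKLF6OE with AAI in normal proximal tubule. Malat1 and Neat1 were higher in the hKLF6OE mouse without AAI, and Neat1 and Pvt1 with AAI. Without AAI, 7.84% of 4041 genes were higher and 9.33% lower, and the 4 genes gave 2 higher and 0 lower. With AAI, 6.32% of 3942 genes were higher and 7.74% lower, and the 4 genes again gave 2 higher and 0 lower. These comparisons share no mice with each other, but each shares both of its mice with the AAI comparisons.

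Malat1 was 1003 in control and 1254 in hKLF6OE, a difference of 0.32, and it ranked 138 from the top of 4041 genes. With AAI it was 884 and 1005, a difference of 0.18. Across single clusters, Malat1 was above 0 in 23 of 23 without AAI and called higher in 17 of them, and above 0 in 23 of 23 with AAI and called higher in 17 of them. Without AAI, 22.4% of 108370 pairs of gene and cluster were higher and 27.4% lower, and with AAI 20.8% of 105462 were higher and 23.8% lower. Among pairs with a value of at least 10, 26.2% were higher and 42.7% lower without AAI and 26% higher and 29.9% lower with AAI.

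The largest Malat1 differences without AAI were in CD_PC (collecting duct principal cells), at 0.60, and in LH-AL-3, at 0.59. In CD_PC it was 1004 in control, 917 in control with AAI, 1527 in hKLF6OE and 1210 in hKLF6OE with AAI. With AAI the largest was in PT-S1-S2-1, at 0.53, from 721 to 1040. The pairs of mice did not overlap in CD_PC, where both hKLF6OE values were above both control values. Because 1 mouse stands for each genotype and treatment, a difference of all clusters of a library and a difference of genotype cannot be told apart. Beside it, the mitochondrial share was higher in hKLF6OE in 23 of 23 clusters without AAI and in 9 of 23 with AAI. The direction of Malat1 with AAI was therefore that of the mitochondrial share in 9 of 23 clusters. Its differences passed 0.5 in 2 clusters without AAI and in 1 with AAI.

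**Figure D3:**
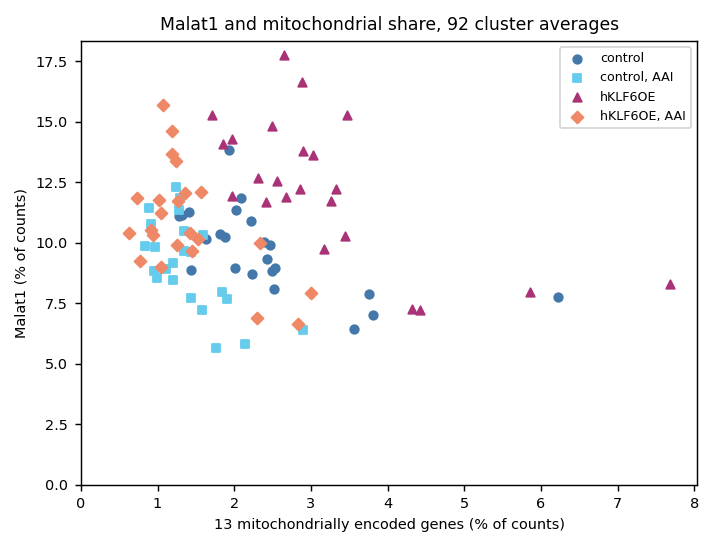
Malat1 (% of counts) against the 13 mitochondrially encoded genes (% of counts) in 92 cluster averages, with 1 colour and marker per mouse. The hKLF6OE mouse without AAI reaches 17.7% for Malat1 in DCT, where the mitochondrial genes are 2.65%. It reaches 7.69% for the mitochondrial genes in InjuredPT-A, where Malat1 is 8.31%. Both AAI-treated mice stay at or below 3.00% on the mitochondrial axis.

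Neat1 was 26.5 in control and 32.8 in hKLF6OE, a difference of 0.30, and 16.7 and 21.3 with AAI, a difference of 0.33, which ranked 77 from the top of 3942 genes. Over the 23 clusters it was higher in 9 and lower in 4 without AAI, and higher in 15 and lower in 1 with AAI. The lower clusters without AAI were MC, IC-B-1, IC-A and IC-B-2, of which 3 are intercalated cells. LH-AL-3 had the largest difference without AAI, 0.84, from 18.8 in control to 34.4 in hKLF6OE.

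Pvt1 was 1.33 in control and 1.05 in hKLF6OE, a difference of -0.18, and 2.65 and 3.69 with AAI, a difference of 0.36, ranking 62 from the top of 3942 genes. Over clusters it was lower in 5 of 9 and higher in 0 without AAI, and higher in 9 of 14 and lower in 1, LH-DL, with AAI. Whether the difference between genotypes itself differed with AAI was not tested, since there is 1 mouse each. Kcnq1ot1 was 3.68 and 4.00 without AAI and 4.80 and 5.41 with AAI, differences of 0.09 and 0.14. It was higher in 3 clusters and lower in 5 without AAI, and higher in 5 and lower in 4 with AAI, so neither direction led.

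Proteins of the nuclear bodies were also compared between genotypes in normal proximal tubule. Paraspeckle proteins gave 0 higher and 3 lower of 19 without AAI and 1 higher and 1 lower of 21 with AAI, and speckle proteins 0 higher and 1 lower of 20 without AAI and 0 either way of 20 with AAI. Over all genes, 7.84% were higher and 9.33% lower without AAI and 6.32% and 7.74% with AAI. The list medians were -0.01 and 0.05 for paraspeckle and -0.05 and 0.05 for speckle proteins, beside -0.03 and 0.01 for all genes. Hnrnph1, a splicing regulator, differed by -0.24 without and 0.23 with AAI. In the Kcnq1 domain, Cd81 was higher without AAI, by 0.34, as 1 of 5 genes that entered, and 0 of 4 were called with AAI. Of the other long noncoding RNAs, Airn and Ftx were lower without AAI, with differences of -0.20 and -0.25, and Gm26917 was higher with AAI, from 3.72 to 8.92. Snhg11, a snoRNA host gene, was higher without AAI, by 0.37, and lower with AAI, with a difference of -0.29. Mitochondrially encoded genes were higher in 10 of 11 without AAI, and 1 was higher and 5 lower of 11 with AAI, beside the Malat1 differences above.

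**Figure D4:**
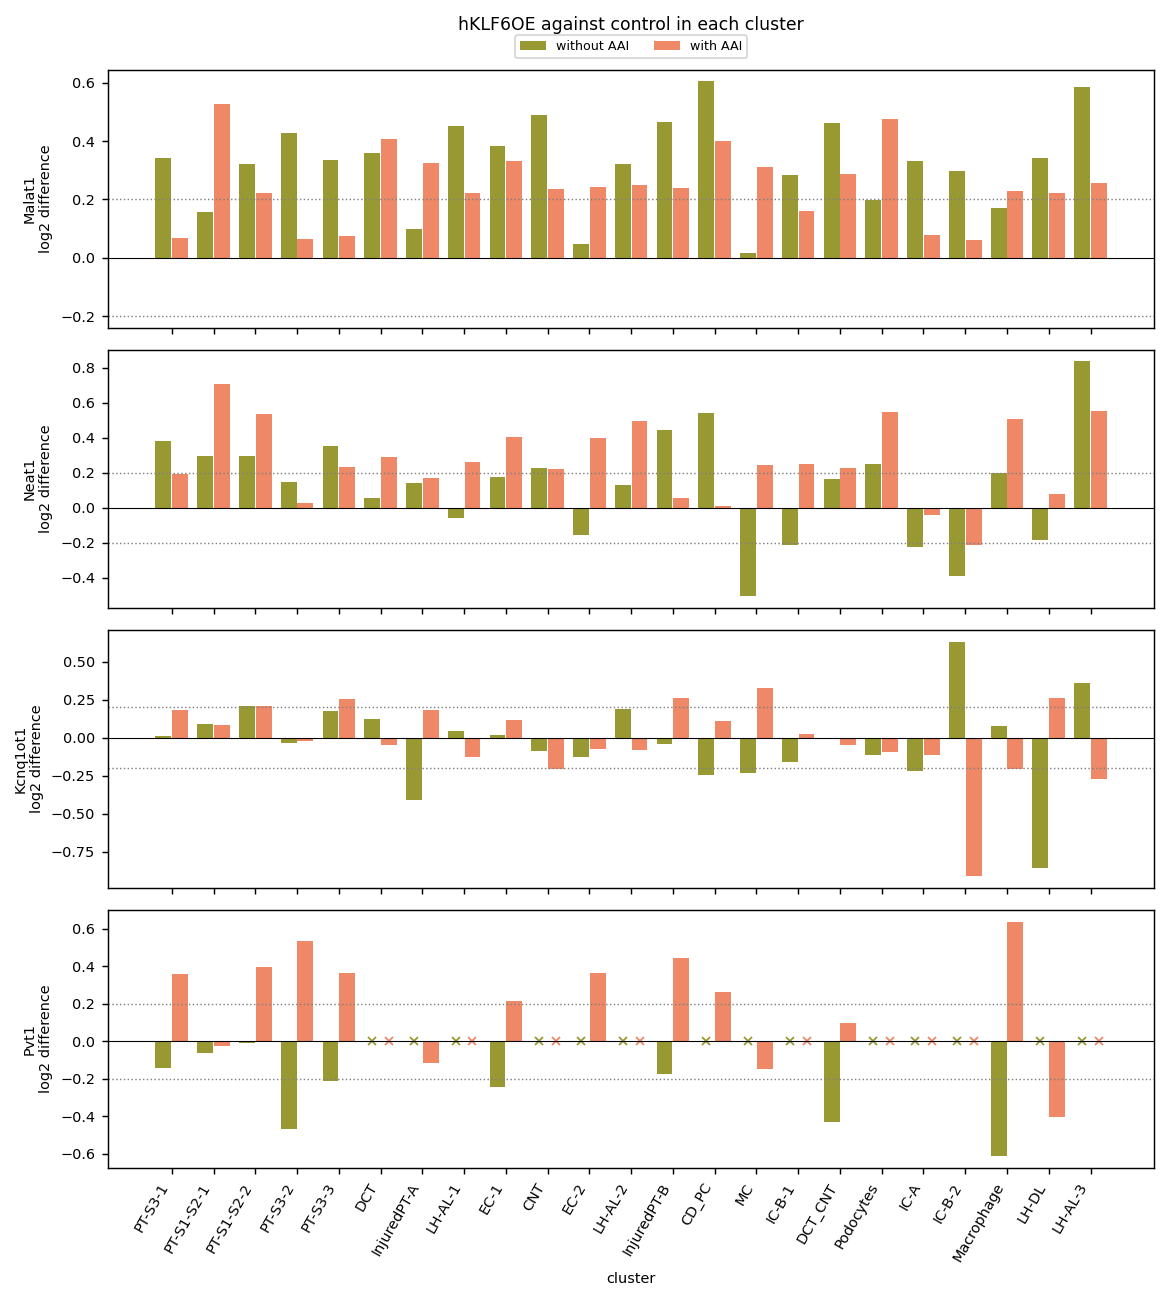
Log2 difference of hKLF6OE against control in each cluster, with olive bars for mice without AAI, orange bars for mice with AAI, dotted lines at 0.2 either way, and crosses where neither side reached 0.5. Malat1 is above 0 in all 23 clusters in both treatments, and Pvt1 is below 0 in all 9 clusters that entered without AAI and above 0 in 10 of 14 with AAI.

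The injured proximal tubule clusters were compared with normal proximal tubule of the same AAI-treated mouse. Against the mean of the 5 normal clusters, InjuredPT-A, the cluster with the highest Polr2a and mouse Klf6, had lower Neat1, Kcnq1ot1 and Pvt1. InjuredPT-B, the cluster with the highest Havcr1, had higher Neat1 and Pvt1 than that mean, though Pvt1 was higher still in the normal cluster PT-S3-3. In InjuredPT-A, 51.4% of 5479 genes were higher and 27.8% lower in control with AAI, and 47.5% of 5337 were higher and 30.6% lower in hKLF6OE with AAI. The 4 genes gave 0 higher and 3 lower in each mouse. The median over all genes was 0.22 in control with AAI, and centring on it moved Kcnq1ot1 there from -0.78 to -1.002.

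Pvt1 in InjuredPT-A was 1.15 in control with AAI and 0.982 in hKLF6OE with AAI, against 2.65 and 3.69 in normal proximal tubule, differences of -0.76 and -1.24. Among the normal clusters, PT-S1-S2-1 was lower still, at 0.813 and 0.780. Without AAI, Pvt1 in InjuredPT-A was 0 in control and 0.224 in hKLF6OE, where 62.6% and 40.8% of genes were at 0, against 22.5% and 22.2% in the mice with AAI. Kcnq1ot1 was 2.38 and 2.83 against 4.80 and 5.41, differences of -0.78 and -0.74. Neat1 was 13.1 and 14.9 against 16.7 and 21.3, differences of -0.33 and -0.49. In hKLF6OE with AAI this lay below every normal proximal tubule cluster, the lowest of which was 18.6, and in control with AAI PT-S1-S2-2 was lower still at 12.9. Malat1 was 798 and 999 against 884 and 1005, differences of -0.15 and -0.01, short of the threshold, though centring on the median of all genes made the first -0.37.

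Proteins of the nuclear bodies went the other way in InjuredPT-A. From these same nuclei, the study had already named Hnrnp and Srsf genes among those upregulated in this cluster. The lists used here hold genes of both families, so the counts below are not independent of that report. Paraspeckle proteins were higher in 21 of 25 that entered and lower in 1 in control with AAI, and higher in 20 of 26 and lower in 1 in hKLF6OE with AAI, with medians of 0.55 and 0.53 beside 0.22 and 0.16 for all genes. Speckle proteins were higher in 21 of 23 and lower in 1, and higher in 18 of 23 and lower in 0, with medians of 0.61 and 0.57. Srsf7, a splicing factor, differed most among the latter in control with AAI, from 0.823 to 4.02, and Son, a speckle scaffold, in hKLF6OE with AAI, from 3.45 to 9.95. The same lists in InjuredPT-B were higher in 11 of 21 and 9 of 21 for paraspeckle proteins and 11 of 22 and 9 of 23 for speckle proteins, with 0 lower in each, where 34.3% and 35.9% of all genes were higher.

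Of the neighbors, Fam84b near Pvt1 was 2.36 in InjuredPT-A against 0.175 in normal proximal tubule of control with AAI, and 1.21 against 0.109 in hKLF6OE with AAI. Dpf2, near Malat1 and Neat1, was 1.19 against 0.430 and 1.05 against 0.395. Tssc4, in the Kcnq1 domain, was 1.34 against 0.145 and 1.75 against 0.128. Other neighbors went with the long noncoding RNAs: Asap1 near Pvt1 differed by -0.53 and -0.62 and Slc22a18 by -0.79 and -0.84. Mitochondrially encoded genes were higher in 11 of 11 in this cluster in both mice, with medians of 0.62 and 1.076, and their part in the differences of the long noncoding RNAs was not tested.

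In InjuredPT-B, 34.3% of 4577 genes were higher and 15.4% lower in control with AAI, and 35.9% of 4499 were higher and 17.3% lower in hKLF6OE with AAI. The 4 genes gave 2 higher and 0 lower in each mouse. Neat1 was 25.97 against 16.7 in control with AAI, a difference of 0.61 that ranked 87 of 4577, and 27.0 against 21.3 in hKLF6OE with AAI, a difference of 0.33 that ranked 758 of 4499. Pvt1 was 4.12 against 2.65 and 5.97 against 3.69, differences of 0.49 and 0.57. Against the 3 PT-S3 clusters alone, Pvt1 differed by 0.13 and 0.18, under the threshold. Among the normal clusters, PT-S3-3 was higher than InjuredPT-B in both mice, at 5.38 and 7.21. Malat1 and Kcnq1ot1 differed by no more than 0.07 either way.

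**Figure D5:**
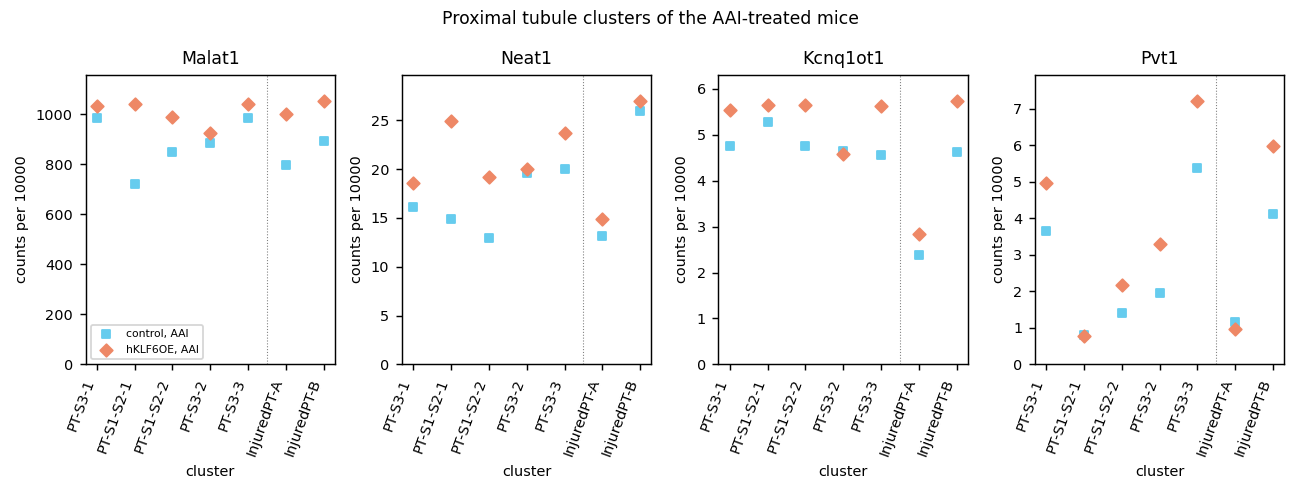
Malat1, Neat1, Kcnq1ot1 and Pvt1 (counts per 10000, linear axes from 0) in the 5 normal and 2 injured proximal tubule clusters of the AAI-treated mice, with 1 marker per mouse and a dotted line before the injured clusters. InjuredPT-A lies lowest for Kcnq1ot1, at 2.38 and 2.83, and InjuredPT-B lies highest for Neat1, at 25.97 and 27.0.

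The genes whose pattern over the 92 columns was most like each RNA were found by Pearson's r of log2(value + 1) among 4272 genes with a mean of at least 0.5. Malat1 was closest to Neat1, with r of 0.71, followed by Slc25a12, a mitochondrial carrier, at 0.61 and Strbp at 0.61. Neat1 was closest to Malat1 and then to Col4a3, a basement membrane collagen, at 0.71 and Larp1b at 0.69. Kcnq1ot1 was closest to Mgat5, a glycan-branching enzyme, at 0.86, and Pvt1 to Ptk2b, a tyrosine kinase, at 0.88. Dock5 and Dpp4 followed for Kcnq1ot1 at 0.82 and 0.80, and Rnf169 and Arap2 for Pvt1 at 0.86 and 0.82. These values describe columns that share clusters and libraries. For Kcnq1ot1 with Dpp4, Spearman's rho was 0.48 against r of 0.80, and podocytes are the only cluster that stands apart in Kcnq1ot1.

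Within the 20 columns of normal proximal tubule alone, the closest genes were others. Pvt1 was closest to Csnk1g1, a casein kinase, and Piezo1, a mechanosensitive channel, with r of 0.96 for both, and Kcnq1ot1 to Nptn, at 0.92. Neat1 was closest to Preb, at 0.85, and Malat1 to Gm16599, at 0.86, with Neat1 next at 0.79.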

How the data were processed

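Nuclei of kidney cortex were sequenced on the 10x platform from 4 mice, 1 per condition, in 1 technical batch. The signal values deposited by the authors are linear cluster averages, in which each nucleus had been scaled to 10000 counts and each mouse has its own column. The authors used Cell Ranger 3.1.0 with a mouse pre-mRNA reference (mm10), which counts intronic reads, and Seurat 4.3. Nuclei with few or many genes or a high mitochondrial share were left out, and removal of doublets is not described. The averaging function and strand setting are not given in the sources used here. Of 19632 rows, 23 with date-like names were left out, which leaves 19609. Cluster names follow the order of the study's marker sheets, and in 8 of 8 sheets held (the 5 normal proximal tubule clusters, DCT, InjuredPT-A and LH-AL-1) the named cluster fitted best. The other names rest on that order and on marker genes. Normal proximal tubule is the unweighted mean of 5 clusters of a mouse. Differences used a pseudocount of 1, a minimum value of 0.5 and a threshold of 0.2, with no test. The calling of differences was checked on simulated data with log2 changes of 1. These lie far above the threshold, so the check does not show how calls near 0.2 between single mice behave.

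The long noncoding RNAs, the gene lists and the comparisons were chosen with earlier results of these data known. The named genes are all 5 RNAs, the 3 genes most like each, the most different member of each list, any gene of the imprinted domains and neighbor lists that reached the minimum (a selection of these is named), and Cdkn1a and Mdm2. Alternatives were a pseudocount of 0.1, no minimum, minimum values of 2 and 10, a threshold of 0.5, centring on the median, rescaling, the 3 PT-S3 clusters as reference, and leaving out clusters. Positions and transcripts came from GENCODE M21 (GRCm38) and promoters from RefSeq (GRCm38.p6). Figures were drawn with matplotlib 3.10.9, and values were computed with pandas 2.3.3, scipy 1.17.1 and numpy 2.4.6 under Python 3.11.15. The chromatin data were not analysed here.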

Additional observations from a re-analysis of the deposited data

Results flagged for a closer look

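In 11 cases, a cluster was called in opposite directions in 2 comparisons of the same kind, and none of these differences was tested, as each value rests on 1 mouse per condition. With AAI, 1 of 81 pairs of gene and cluster that entered in both genotypes did so (1.23%, beside 10.1% of 94668 pairs of all genes), and between genotypes 10 of 78 (12.8%, beside 12.1% of 90423).

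For AAI against none, Kcnq1ot1 in IC-B-2 differed by 0.56 in control and -0.98 in hKLF6OE. For hKLF6OE against control, Neat1 in MC differed by -0.50 without and 0.25 with AAI, and in IC-B-1 by -0.21 and 0.25. Kcnq1ot1 differed by -0.23 and 0.33 in MC, by 0.63 and -0.91 in IC-B-2, by -0.86 and 0.26 in LH-DL and by 0.36 and -0.27 in LH-AL-3. Pvt1 differed by -0.47 and 0.54 in PT-S3-2, by -0.21 and 0.36 in PT-S3-3, by -0.24 and 0.21 in EC-1 and by -0.62 and 0.64 in macrophages. IC-B-2, LH-DL and LH-AL-3 had over 50% of genes at 0 in at least 1 mouse of the comparison, as did macrophages with AAI (63.4% in control and 56.9% in hKLF6OE), and EC-1, macrophages and MC held the proximal tubule marker Slc5a12.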

How the results depend on the processing

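No paired analysis was possible because each condition has 1 mouse, and for the same reason no replicate could be left out. Of 176 recomputed counts, top levels and likenesses, 147 stayed within 1.5 times (0.2 for r) of their value and 29 moved. Signs of log2 differences were followed only for normal proximal tubule and the injured clusters against it, where no called difference changed sign. Only centring, rescaling and the PT-S3 reference could change a sign there, as pseudocount, minimum and threshold cannot. Signs of the differences counted over clusters were not followed.

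At a threshold of 0.5, AAI gave over clusters 10 higher and 8 lower in control (from 25 and 22) and 19 and 6 in hKLF6OE (from 33 and 24), and hKLF6OE gave 5 and 3 without AAI (from 29 and 14) and 8 and 1 with AAI (from 46 and 6). Of all pairs of gene and cluster, 9.81% were then higher and 9.06% lower, 10.7% and 9.83%, 7.65% and 8.62%, and 6% and 6.8%, in that order. In normal proximal tubule it left 1 higher in control with AAI, 1 higher and 1 lower in hKLF6OE with AAI, 0 higher between genotypes in either treatment, and 1 higher in InjuredPT-B of each mouse. A minimum of 10, which takes out most Kcnq1ot1 and Pvt1 values by construction, gave 4 higher in control and 9 higher in hKLF6OE for AAI, and 4 lower without AAI, 29 higher and 1 lower with AAI between genotypes, where 34.3%, 46.9%, 42.7%, 26% and 29.9% of all such pairs were called so. Without clusters in which over 50% of genes were at 0, AAI gave 15 higher in control (22.1% of all pairs), and hKLF6OE 1 lower with AAI (19.6%). Centring left 8 lower between genotypes without AAI (23.7%). Rescaling made 2 lower in control with AAI. A pseudocount of 0.1 or the PT-S3 clusters alone made 1 lower between genotypes without AAI (Pvt1), and the PT-S3 clusters left 1 higher with AAI and 1 in InjuredPT-B of each mouse. Except where construction shows it, the cause was not tested. Leaving out EC-1 and macrophages, added after the data were seen, kept all counts over clusters within 1.5 times. Depth and nuclei per column are unknown here, which limits values near 0, those of Pvt1 and Meg3 above all.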
